A study of Mus musculus with 21 samples.

Results

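The 10 genes described here are core members of the Hippo signalling pathway: the kinases Lats1 and Lats2, the coactivators Yap1 and Wwtr1 (also called TAZ), the transcription factors Tead1, Tead2, Tead3 and Tead4, and the angiomotins Amot and Amotl2. They were chosen by gene symbol alone. Lats2 mRNA is a known target of microRNA clusters of embryonic stem cells (miR-290 and miR-302), and the rest of the pathway can be set beside it. All 10 had a row among the 22512 genes of the count table. The symbol Lats2 stood on 2 rows, and the second of them is described separately below.

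The RNA came from mouse embryonic stem cells (129S6/SvEvTac) and was sequenced as 7 groups of 3 libraries, called biological replicates by the submitters. Every group, the controls included, carries the GFP_5xT71BS reporter, a GFP transgene with binding sites for TRIM71, and stably expresses FLAG-Cas9 with blasticidin resistance. The culture medium held serum and LIF, and the plates were gelatin-coated. In Experiment 1, unmodified reporter cells (W) were compared with Trim71-/- cells (Trim71KO) and Ago2-/- cells (Ago2KO), none of them transfected. In Experiment 2, reporter cells were transfected with the pCIP plasmid for FH-T6B_WT::mCherry (T6B_WT) or for FH-T6B_MUT::mCherry (T6B_MUT), and Trim71-/- and Ago2-/- cells were transfected with an empty plasmid (Trim71KO_empty and Ago2KO_empty). T6B is the Argonaute-binding peptide of the GW182 protein TNRC6B, AGO2 is a microRNA-binding Argonaute protein, and TRIM71 binds RNA and represses its target mRNAs. None of the 7 groups held unedited cells that received the empty plasmid, so T6B_MUT served as the control of Experiment 2. Plasmid and genotype therefore differ together in the edited lines of that experiment. The labels do not give how many clones were used for each edited line or which cells of a transfected culture took up the plasmid.

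In the Hippo pathway, the kinases MST1 and MST2 (genes Stk4 and Stk3) activate LATS1 and LATS2, which phosphorylate YAP1 and WWTR1 and keep them out of the nucleus. Unphosphorylated YAP1 and WWTR1 enter the nucleus and bind TEAD factors to switch on genes such as Ccn1 and Ccn2. Angiomotins hold YAP1 at cell junctions or in the cytoplasm and promote its phosphorylation by LATS kinases. In the early embryo the pathway separates the trophectoderm from the inner cell mass, the source of embryonic stem cells. The microRNAs of the miR-290 and miR-302 clusters pair with mRNA 3′ UTRs mainly through bases 2 to 8, the seed. Their levels were not examined here.

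The microRNA sequences are shown because they define the site searched for in the members. Of the mature microRNAs of both clusters with an entry in the RefSeq table (build GRCm38.p6), 5 share a single seed, printed here in capitals:
miR-291a-3p: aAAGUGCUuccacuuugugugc
miR-294-3p: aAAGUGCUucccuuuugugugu
miR-295-3p: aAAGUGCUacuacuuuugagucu
miR-302b-3p: uAAGUGCUuccauguuuuaguag
miR-302d-3p: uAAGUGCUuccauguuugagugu
The entries for miR-290a-3p, miR-291b-3p and, as annotated there, miR-302c-3p have other seeds, and miR-292a-3p and miR-302a-3p are named only. The longest 3′ UTR of each member in GENCODE M21 (GRCm38, from the C57BL/6J strain) was searched on the mRNA strand for AGCACTT, the match to the whole seed, and for GCACTTA, the match to bases 2 to 7 followed by A. The letters AGCACTTA hold both and were counted as 1 site. Lats2 held 2 sites, Lats1 and Wwtr1 held 1 each, and the other 7 members held 0. The sites of these 3 genes are shown with their surroundings, the match in capitals:
Lats2 site 1: agtatggaaagAGCACTTAttttgtggata
Lats2 site 2: ttgtatctgatAGCACTTgtccacagcta
Lats1 site: ctcagtggtagAGCACTTgcctaacatac
Wwtr1 site: ctctctctctgAGCACTTcaagagagaca
The first Lats2 site is the longer match and starts 195 bases after the stop codon, with the match at chr14:57691086-57691093 (minus strand) in a printed stretch of chr14:57691075-57691104. The second starts 294 bases after it, with the match at chr14:57690988-57690994 in a printed stretch of chr14:57690977-57691005. The Lats1 match lies at chr10:7714156-7714162 on the plus strand, 1146 bases from the stop codon, and its printed stretch is chr10:7714145-7714173. The Wwtr1 match lies at chr3:57457022-57457028 on the minus strand, 1898 bases from the stop codon, and its printed stretch is chr3:57457011-57457039. Among 21831 genes with a 3′ UTR, 16.9% held at least 1 such site and 3.44% held at least 2. Longer UTRs hold more: of UTRs close in length to those of Lats2, Lats1 and Wwtr1, 22.1%, 40.6% and 39.1% held a site. A match of letters is a description and not evidence of binding.

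The edited genes were examined first. Ago2 stood at 9.72 to 10.99 RPKM (reads per kilobase of gene length, scaled to library size, as deposited) in W and at 2.87 to 3.16 RPKM in Ago2KO. In the libraries labelled Ago2KO_empty, Ago2 was 6.08, 11.4 and 3.21 RPKM in replicates 1, 2 and 3, beside 7.88 to 10.02 RPKM in T6B_MUT. The Ago2 transcript level of the library labelled Ago2KO_empty replicate 2 was therefore not below that of its controls, and the log2 fold changes and counts of calls printed for this group are also given without it. Its counts also differed most from those of a fellow replicate, with a chi-square per degree of freedom of 81.2 against Ago2KO_empty replicate 3, where the other groups reached at most 40.2. Trim71 was 65.1 to 67.3 RPKM in W and 44.7 to 49.9 RPKM in Trim71KO, and 51.0 to 53.4 RPKM in T6B_MUT and 41.7 to 43.0 RPKM in Trim71KO_empty, so transcripts of an edited gene remained. Trim71 was also lower in Ago2KO, at 54.7 to 57.0 RPKM (log2 fold change -0.25, edgeR adjusted p = 0.00161). In T6B_WT it was 44.1 to 46.7 RPKM, below T6B_MUT without overlap and not called (edgeR adjusted p = 0.102). Ago2KO_empty overlapped T6B_MUT, at 44.4 to 58.0 RPKM. Sequencing depth was 29.6 M to 50.8 M counts per library for Experiment 1, and 33.9 M to 57.9 M for Experiment 2. The stem cell markers Pou5f1, Nanog, Sox2, Zfp42, Esrrb and Klf4 summed to 1127 to 1797 RPKM in the 21 libraries, against 14.9 to 29.7 RPKM for 7 trophectoderm markers and 1.17 to 6.61 RPKM for 6 primitive endoderm markers.

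Lats2 transcripts were higher when Ago2 was edited and highest when the T6B peptide was expressed. The row of Lats2 (ENSMUSG00000021959, GRCm38 chr14:57689662-57758388, minus strand) had a lower RPKM than that of Lats1 in every library. In Experiment 1 it was 1.28, 1.504 and 1.498 RPKM in W, 2.23, 2.24 and 2.16 RPKM in Ago2KO, and 1.16, 1.28 and 1.23 RPKM in Trim71KO. Every Ago2KO library lay above every W library, and the highest Trim71KO library was level with the lowest W library. The difference between Ago2KO and W was 1.55-fold, a log2 fold change of 0.63 with a standard error of 0.08 (edgeR quasi-likelihood test, adjusted p = 8.52e-05). Between Trim71KO and W the log2 fold change was -0.22 with a standard error of 0.08 (edgeR adjusted p = 0.0562), and it was -0.29 with an edgeR adjusted p of 0.0158 without W replicate 1.

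In Experiment 2, Lats2 was 3.00, 2.73 and 2.70 RPKM in T6B_WT and 1.39, 1.34 and 1.32 RPKM in T6B_MUT. It was 2.03, 2.07 and 1.70 RPKM in Ago2KO_empty and 1.63, 1.52 and 1.31 RPKM in Trim71KO_empty. No T6B_WT library overlapped another group, and each Ago2KO_empty library lay above all T6B_MUT libraries. Lats2 was 2.09-fold higher in T6B_WT than in T6B_MUT, a log2 fold change of 1.06 with a standard error of 0.10 (edgeR adjusted p = 6.34e-07). In Ago2KO_empty it was 1.45-fold higher than in T6B_MUT, a log2 fold change of 0.54 with a standard error of 0.10 (edgeR adjusted p = 0.000642). This value was 0.46 without the library labelled Ago2KO_empty replicate 2, with a standard error of 0.10 (edgeR adjusted p = 0.0033). In Trim71KO_empty the log2 fold change was 0.15 with a standard error of 0.10 (edgeR adjusted p = 0.306).

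The groups were also compared directly. T6B_WT exceeded Ago2KO_empty in Lats2 by 0.52 on the log2 scale, with a standard error of 0.10 (edgeR adjusted p = 0.00263), and by 0.60 without the library labelled Ago2KO_empty replicate 2 (edgeR adjusted p = 0.00118). Plasmid and genotype both differ in that comparison. Trim71KO lay below Ago2KO by a log2 fold change of -0.85 with a standard error of 0.08 (edgeR adjusted p = 1.8e-06). With the empty plasmid the same difference between the edited lines was -0.39 with a standard error of 0.10 (edgeR adjusted p = 0.00582). By mean level, Lats2 ran from T6B_WT (2.81 ± 0.17 RPKM, SD, n = 3) over Ago2KO (2.21 ± 0.042), Ago2KO_empty (1.93 ± 0.20), Trim71KO_empty (1.49 ± 0.16), W (1.43 ± 0.13) and T6B_MUT (1.35 ± 0.037) to Trim71KO (1.23 ± 0.060). Libraries of neighbouring groups overlapped from Trim71KO_empty to W and from W to T6B_MUT, and not at the other steps. In this order the experiments are set side by side without a test.

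**Figure D1:**
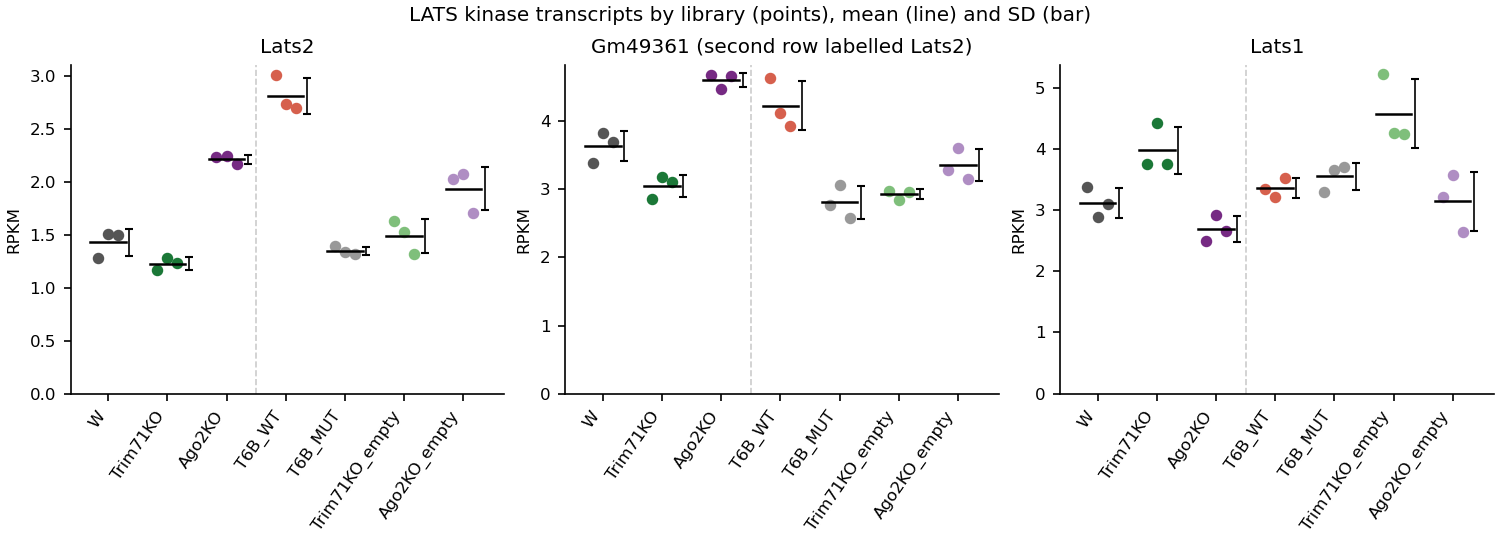
Deposited RPKM of Lats2, Gm49361 and Lats1 (vertical axes, each from 0) in every library of the 7 groups (horizontal axis, Experiment 1 left of the dashed line); points are libraries, horizontal lines means and bars the SD of 3 libraries. For Lats2, the 3 T6B_WT libraries sit between 2.70 and 3.00 RPKM and the 3 T6B_MUT libraries between 1.32 and 1.39 RPKM, while for Lats1 these groups overlap.

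The second row labelled Lats2 in the table (ENSMUSG00000114942, chr14:57642077-57746103, minus strand) is named Gm49361 in GENCODE M21. It is a read-through gene model of 9 exons. Of its 3287 exon bases, 2955 are shared with exons of Lats2 and 332 with exons of the neighbouring nuclear transport gene Xpo4. Whether its exons reach the Lats2 3′ UTR searched above was not examined. How reads in shared exons were assigned is not given in the sources used here, so the rows are not independent. Gm49361 was 3.39 to 3.82 RPKM in W and 4.48 to 4.67 RPKM in Ago2KO, and 2.58 to 3.06 RPKM in T6B_MUT and 3.93 to 4.63 RPKM in T6B_WT. In both comparisons the libraries of the groups did not overlap. Its log2 fold change was 0.34 with a standard error of 0.07 in Ago2KO (edgeR adjusted p = 0.005) and 0.60 with a standard error of 0.09 in T6B_WT (edgeR adjusted p = 0.000225). Xpo4 had log2 fold changes of 0.01 with a standard error of 0.08 and of -0.14 with a standard error of 0.12 in these comparisons (edgeR adjusted p = 0.939 and 0.501). In Ago2KO_empty, the log2 fold change of Gm49361 was 0.28 (edgeR adjusted p = 0.0362), a call that was also lost by DESeq2, without the filter, with the groups fitted alone and in 4 of 6 fits without 1 library. Without the library labelled Ago2KO_empty replicate 2 it was 0.19 (edgeR adjusted p = 0.185). In Trim71KO it was -0.26 with a standard error of 0.08 (edgeR adjusted p = 0.0175), and leaving out W replicate 2, W replicate 3 or Trim71KO replicate 1 gave -0.22 to -0.25 and no call.

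Lats1 did not share the pattern of Lats2. Lats1 (ENSMUSG00000040021, chr10:7681214-7716460, plus strand) encodes the paralogous kinase, with overlapping substrates. It was 3.37, 2.88 and 3.09 RPKM in W, 2.49, 2.91 and 2.66 RPKM in Ago2KO, and 3.75, 4.42 and 3.75 RPKM in Trim71KO. All Trim71KO libraries lay above W, while Ago2KO overlapped W. The log2 fold change was 0.35 with a standard error of 0.08 in Trim71KO (edgeR adjusted p = 0.00526) and -0.22 with a standard error of 0.09 in Ago2KO (edgeR adjusted p = 0.0929).

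In Experiment 2, Lats1 was 3.34, 3.21 and 3.52 RPKM in T6B_WT, 3.29, 3.65 and 3.70 RPKM in T6B_MUT, 5.23, 4.25 and 4.24 RPKM in Trim71KO_empty and 3.21, 3.58 and 2.64 RPKM in Ago2KO_empty. Only the Trim71KO_empty libraries stood wholly above T6B_MUT. Lats1 rose there by 0.37 on the log2 scale with a standard error of 0.11 (edgeR adjusted p = 0.0155), but leaving out Trim71KO_empty replicate 1 gave 0.26 (edgeR adjusted p = 0.101) and leaving out T6B_MUT replicate 1 gave 0.31 (edgeR adjusted p = 0.0694). In T6B_WT the log2 fold change was -0.08 with a standard error of 0.11 (edgeR adjusted p = 0.702). In Ago2KO_empty it was -0.16 with a standard error of 0.11 (edgeR adjusted p = 0.295), and it fell by 0.29 without the library labelled Ago2KO_empty replicate 2 (edgeR adjusted p = 0.0431).

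Per length, the Lats2 row therefore stood closer to Lats1 in cells with edited Ago2 or T6B. How reads in exons shared with Gm49361 were assigned is not given, so ratios to Lats1 hold for that row only. The ratio of Lats2 to Lats1 RPKM was 0.378, 0.522 and 0.484 in W and 0.896, 0.768 and 0.811 in Ago2KO. It was 0.422, 0.366 and 0.357 in T6B_MUT, 0.901, 0.851 and 0.765 in T6B_WT, and 0.633, 0.578 and 0.646 in Ago2KO_empty. In Trim71KO it was 0.310, 0.290 and 0.328, below every W library. None of these groups overlapped its control, with or without the library labelled Ago2KO_empty replicate 2. In Trim71KO_empty it was 0.312, 0.357 and 0.310, overlapping T6B_MUT (exact permutation p = 0.2). A two-sided exact permutation test of 3 against 3 libraries cannot go below p = 0.10, and each of the 4 comparisons without overlap gave p = 0.10 (0.20 after Benjamini-Hochberg adjustment over all 30 ratio and share tests).

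Yap1 held a nearly constant level. Yap1 (ENSMUSG00000053110, chr9:7931999-8004596, minus strand, with Gm20416 on the opposite strand) encodes the main coactivator restrained by LATS kinases. Its 21 libraries lay between 14.5 and 19.8 RPKM, and its log2 fold changes in the 5 comparisons with a control lay between -0.12 and 0.10, each with a standard error of 0.05 or 0.06 and none called (edgeR adjusted p from 0.102 to 0.436). The size nearest to a call was in Ago2KO, with 17.6, 19.2 and 17.7 RPKM beside 19.8, 19.6 and 19.7 RPKM in W. All Ago2KO libraries lay below W there, at a log2 fold change of -0.12 (edgeR adjusted p = 0.102), which was -0.16 and called without Ago2KO replicate 2 (edgeR adjusted p = 0.0427). In Ago2KO_empty the value was -0.07, and -0.10 without the library labelled replicate 2 (edgeR adjusted p = 0.303).

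Wwtr1 rose in both groups with edited Trim71. Wwtr1 (ENSMUSG00000027803, chr3:57455649-57575910, minus strand) encodes the paralogous coactivator TAZ. It was 4.83, 4.67 and 4.93 RPKM in W, 7.10, 7.27 and 6.51 RPKM in Trim71KO and 5.38, 4.99 and 5.04 RPKM in Ago2KO. Trim71KO stood clear of both other groups, at a log2 fold change of 0.53 with a standard error of 0.06 against W (edgeR adjusted p = 1.29e-05). Ago2KO gave 0.09 with a standard error of 0.06 (edgeR adjusted p = 0.349). In Experiment 2, Wwtr1 was 14.1, 14.1 and 13.1 RPKM in Trim71KO_empty, 13.1, 12 and 11.4 RPKM in Ago2KO_empty, 10.8, 10.7 and 11.2 RPKM in T6B_WT and 9.44, 8.81 and 10.6 RPKM in T6B_MUT. Both edited lines lay wholly above T6B_MUT, as did T6B_WT by a small margin. The log2 fold change against T6B_MUT was 0.52 in Trim71KO_empty (SE 0.07, edgeR adjusted p = 3.75e-05), 0.36 in Ago2KO_empty (SE 0.07, edgeR adjusted p = 0.00168) and 0.18 in T6B_WT (SE 0.07, edgeR adjusted p = 0.109). Without the library labelled Ago2KO_empty replicate 2, the value in that group was 0.34 (edgeR adjusted p = 0.00408).

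The ratio of Yap1 to Wwtr1 RPKM was 4.11, 4.20 and 3.99 in W, 2.58, 2.63 and 2.95 in Trim71KO and 3.28, 3.85 and 3.51 in Ago2KO. In T6B_MUT it was 1.69, 1.74 and 1.58, in Trim71KO_empty 1.21, 1.17 and 1.27, in Ago2KO_empty 1.19, 1.26 and 1.28 and in T6B_WT 1.55, 1.57 and 1.60. Within each experiment the libraries of both edited lines lay wholly below their control, also without the library labelled Ago2KO_empty replicate 2 (exact permutation p = 0.10 each, 0.20 after adjustment), and T6B_WT overlapped T6B_MUT (exact permutation p = 0.2). On the log2 scale the difference was -0.59 in Trim71KO, -0.21 in Ago2KO, -0.46 in Trim71KO_empty and -0.43 in Ago2KO_empty. Between the controls of the experiments, which were not tested against each other, Wwtr1 RPKM also stood at 4.67 to 4.93 in W and 8.81 to 10.6 in T6B_MUT, and transfection and experiment cannot be told apart there.

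Amot, which encodes the angiomotin that retains YAP1 outside the nucleus, was the member with the largest decrease. Amot (ENSMUSG00000041688, chrX:145446425-145505181, minus strand) was low everywhere, at 0.893, 0.790 and 0.716 RPKM in W, 0.402, 0.451 and 0.352 RPKM in Trim71KO and 0.376, 0.454 and 0.384 RPKM in Ago2KO. No library of either edited line reached W. Its log2 fold change was -1.003 in Trim71KO and -0.997 in Ago2KO, with standard errors of 0.13 and 0.12 (edgeR adjusted p = 2.48e-05 and 7.03e-05), and the edited lines share the W libraries. In Experiment 2, Amot was 0.588, 0.673 and 0.637 RPKM in T6B_MUT, 0.534, 0.623 and 0.594 RPKM in T6B_WT, 0.466, 0.460 and 0.379 RPKM in Trim71KO_empty and 0.364, 0.532 and 0.391 RPKM in Ago2KO_empty. Both edited lines lay below T6B_MUT, and T6B_WT overlapped it. The log2 fold change was -0.53 in Trim71KO_empty and -0.54 in Ago2KO_empty, each with a standard error of 0.14 (edgeR adjusted p = 0.00901 and 0.00858), and -0.11 with a standard error of 0.14 in T6B_WT (edgeR adjusted p = 0.661). The value was -0.75 without the library labelled Ago2KO_empty replicate 2 (edgeR adjusted p = 0.000495).

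Amotl2, a related angiomotin whose gene is itself switched on by YAP1 and TEAD factors, fell in Trim71KO and was slightly higher in Trim71KO_empty. Amotl2 (ENSMUSG00000032531, chr9:102716672-102733418, plus strand) was 15.3, 18.0 and 17.7 RPKM in W and 9.48, 10.6 and 12.3 RPKM in Trim71KO, without overlap. In Experiment 2 it was 12.1, 11.2 and 11.3 RPKM in T6B_MUT and 16.2, 12.6 and 12.7 RPKM in Trim71KO_empty, where replicate 1 stood apart. The log2 fold change was -0.66 with a standard error of 0.09 in Trim71KO (edgeR adjusted p = 0.000182) and 0.27 with a standard error of 0.08 in Trim71KO_empty (edgeR adjusted p = 0.0241). The latter was 0.13 without Trim71KO_empty replicate 1 (edgeR adjusted p = 0.242), and it was 0.24 and not called without T6B_MUT replicate 2 or 3. The difference between the experiments in the effect of Trim71 editing was 0.92 with a standard error of 0.13 (edgeR interaction, adjusted p = 5.45e-05). In Ago2KO, T6B_WT and Ago2KO_empty, log2 fold changes of Amotl2 were -0.20, 0.20 and 0.13, and none was called (edgeR adjusted p = 0.164, 0.118 and 0.263). The last was also 0.13 without the library labelled Ago2KO_empty replicate 2 (edgeR adjusted p = 0.327).

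**Figure D2:**
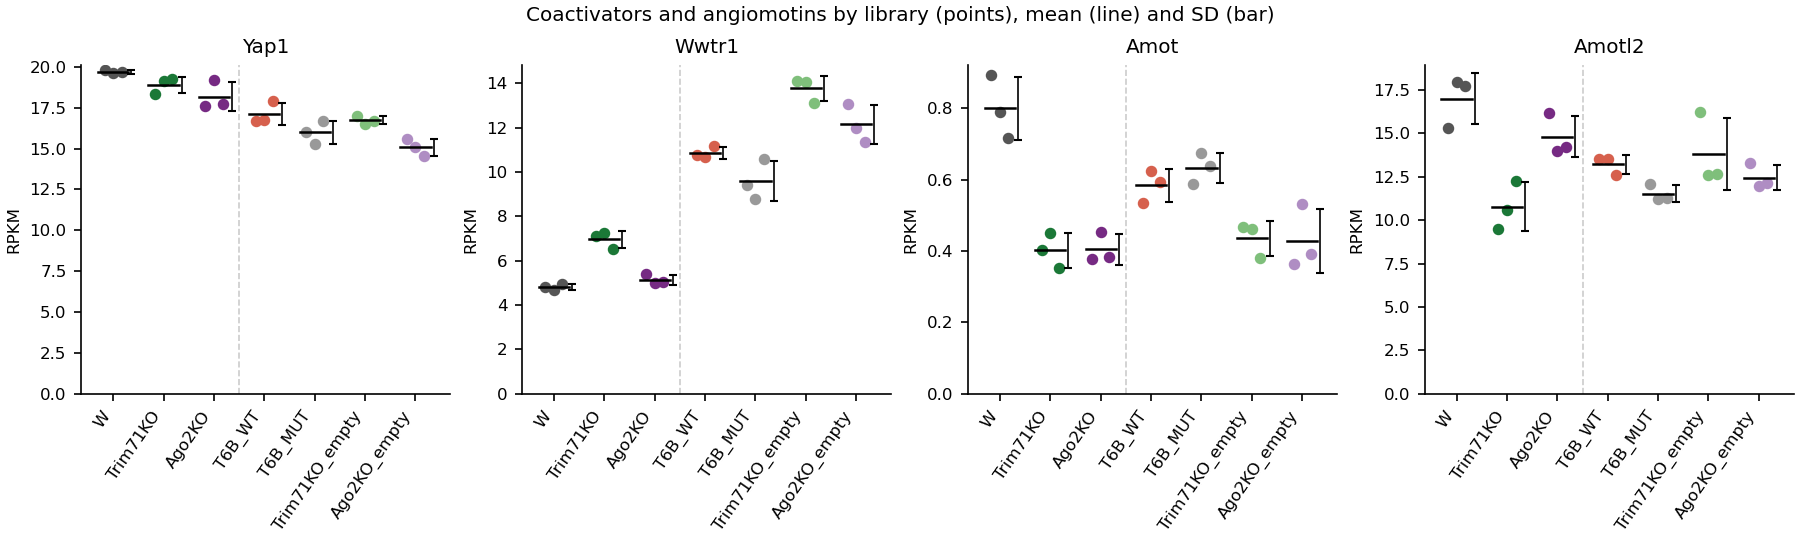
Deposited RPKM of Yap1, Wwtr1, Amot and Amotl2 (vertical axes, each from 0) in every library of the 7 groups (horizontal axis, Experiment 1 left of the dashed line), with means as lines and the SD of 3 libraries as bars. Wwtr1 sits at 6.51 RPKM or more in the Trim71KO libraries and at 5.38 RPKM or less in W and Ago2KO, and the group means of Amot are lowest in the 4 groups with an edited gene.

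The TEAD factors carry the DNA-binding domain that YAP1 and WWTR1 lack. Tead2, the form of early embryos, was the most abundant of them and held 49.5% to 72.7% of the summed RPKM of the 4 genes in each library. Tead3 held 0.906% to 2.19%.

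Tead4, which encodes the TEAD factor required for the trophectoderm, rose in the groups with edited Trim71. Tead4 (ENSMUSG00000030353, chr6:128224288-128300823, minus strand, with the pseudogene Gm21893 on the opposite strand) was 4.44, 5.02 and 5.36 RPKM in W and 6.75, 6.404 and 7.08 RPKM in Trim71KO. The groups did not overlap, and the log2 fold change was 0.45 with a standard error of 0.07 (edgeR adjusted p = 0.000307). In Trim71KO_empty it was 4.90, 4.67 and 4.66 RPKM beside 4.02, 3.95 and 4.09 RPKM in T6B_MUT. These groups did not overlap either, but the log2 fold change of 0.24 with a standard error of 0.08 (edgeR adjusted p = 0.03) was not called when T6B_MUT replicate 1, 2 or 3 or Trim71KO_empty replicate 1 or 2 was left out, at 0.21 to 0.25. Log2 fold changes were -0.00 in Ago2KO, 0.04 in T6B_WT and -0.17 in Ago2KO_empty, none called (edgeR adjusted p = 0.981, 0.802 and 0.132). Without the library labelled Ago2KO_empty replicate 2 the last was -0.26 (edgeR adjusted p = 0.0263).

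Tead2 fell in Trim71KO_empty. Tead2 (ENSMUSG00000030796, chr7:45215753-45233644, plus strand, overlapped at its end by Cd37 on the opposite strand) was 11.98, 14.1 and 15.6 RPKM there and 19.4, 18.9 and 18.5 RPKM in T6B_MUT. All 3 libraries of the edited line lay lower, at a log2 fold change of -0.45 with a standard error of 0.08 (edgeR adjusted p = 0.000549). In Experiment 1, Trim71KO libraries held 20.1, 19.5 and 22.4 RPKM and W libraries 18.1, 19.7 and 20.9 RPKM, and the groups overlapped. The log2 fold change there was 0.08 with a standard error of 0.06 (edgeR adjusted p = 0.393), and the difference between the experiments was -0.52 with a standard error of 0.11 (edgeR interaction, adjusted p = 0.00366). Ago2KO libraries, at 23.9, 22.0 and 22.6 RPKM, lay above W, at a log2 fold change of 0.22 with a standard error of 0.06 (edgeR adjusted p = 0.0256), which was no longer called without W replicate 1 or 2 or Ago2KO replicate 1 or 3, at 0.17 to 0.23. In T6B_WT and Ago2KO_empty the values were 0.13 and -0.09, not called (edgeR adjusted p = 0.334 and 0.434), and the latter was -0.11 without the library labelled Ago2KO_empty replicate 2 (edgeR adjusted p = 0.443).

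Tead1 was even across 6 groups and uneven in the seventh. Tead1 (ENSMUSG00000055320, chr7:112679318-112906807, plus strand, overlapped by the noncoding gene 2310014F06Rik on the opposite strand) lay between 2.91 and 4.65 RPKM in the 18 libraries outside Ago2KO_empty. In the libraries labelled Ago2KO_empty it was 7.17, 13.2 and 3.30 RPKM in replicates 1, 2 and 3. The replicates thus stood in the same order as for Ago2 itself, at 6.08, 11.4 and 3.21 RPKM, and the part of that spread in the Tead1 values was not tested. The log2 fold change against T6B_MUT was 1.13 with a standard error of 0.43 (edgeR adjusted p = 0.0849). It was 0.50 without replicate 2 (edgeR adjusted p = 0.308) and 1.48 without replicate 3 (edgeR adjusted p = 0.00462), so that a single library decides the call, and DESeq2 called it at 1.11 (DESeq2 adjusted p = 0.0267). The other 4 comparisons with a control gave -0.14 to 0.13, none called.

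Tead3 was near the lower end of what these libraries measure well, with 64 to 167 counts in a library. Tead3 (ENSMUSG00000002249, chr17:28331671-28350817, minus strand) lay between 0.269 and 0.603 RPKM, and every group overlapped its control. Its log2 fold changes in the 5 comparisons were between -0.04 and 0.34 with standard errors of 0.15 to 0.21 (edgeR adjusted p from 0.215 to 0.889). In Ago2KO_empty, at 0.34, it was 0.61 and called without T6B_MUT replicate 2 (edgeR adjusted p = 0.0293), and 0.33 without the library labelled Ago2KO_empty replicate 2 (edgeR adjusted p = 0.308).

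**Figure D3:**
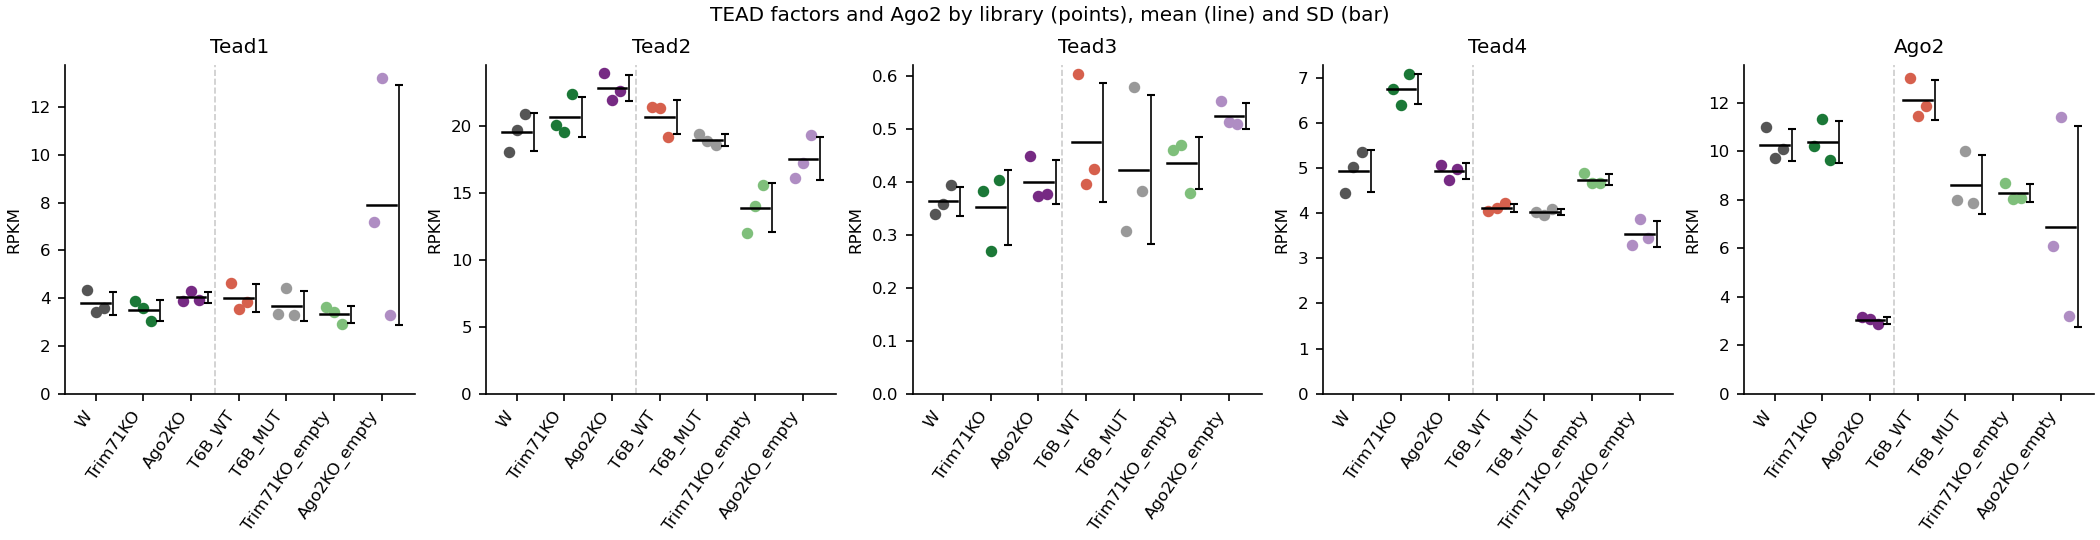
Deposited RPKM of Tead1, Tead2, Tead3, Tead4 and Ago2 (vertical axes, each from 0) in every library of the 7 groups (horizontal axis, Experiment 1 left of the dashed line), with means as lines and the SD of 3 libraries as bars. The Ago2KO_empty libraries spread from 3.30 to 13.2 RPKM for Tead1 and from 3.21 to 11.4 RPKM for Ago2.

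Counted over the 10 members, calls were read against all genes tested. In Trim71KO against W, 3 members were higher (Lats1, Wwtr1, Tead4) and 2 lower (Amot, Amotl2), 5 of 10, where 32.6% of 21210 genes were called. In Ago2KO against W, 2 were higher (Lats2, Tead2) and 1 lower (Amot), where 18.0% were called. In T6B_WT against T6B_MUT, Lats2 alone of the 10 was called, where 16.0% of 21505 genes were called. No member was lower, also at an unadjusted p under 0.05 in edgeR or by DESeq2. The groups fitted alone also called Wwtr1 at 0.18 and Amotl2 at 0.20 (edgeR adjusted p = 0.0416 and 0.0102). These shares are close to the background or rest on few genes, so they say nothing about the pathway as a set.

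In Trim71KO_empty against T6B_MUT, 4 members were higher (Lats1, Wwtr1, Tead4, Amotl2) and 2 lower (Tead2, Amot), where 27.8% were called. In Ago2KO_empty against T6B_MUT, 2 were higher (Lats2, Wwtr1) and 1 lower (Amot), where 28.8% were called. Without the library labelled Ago2KO_empty replicate 2, Lats1 and Tead4 joined Amot, giving 3 lower and 2 higher. Median log2 fold changes of the members were -0.05, 0.04, 0.13, 0.11 and 0.03 in the 5 comparisons in this order, beside medians of all genes between -0.00 and 0.03. The Experiment 1 comparisons share the W libraries and the Experiment 2 comparisons share T6B_MUT.

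**Figure D4:**
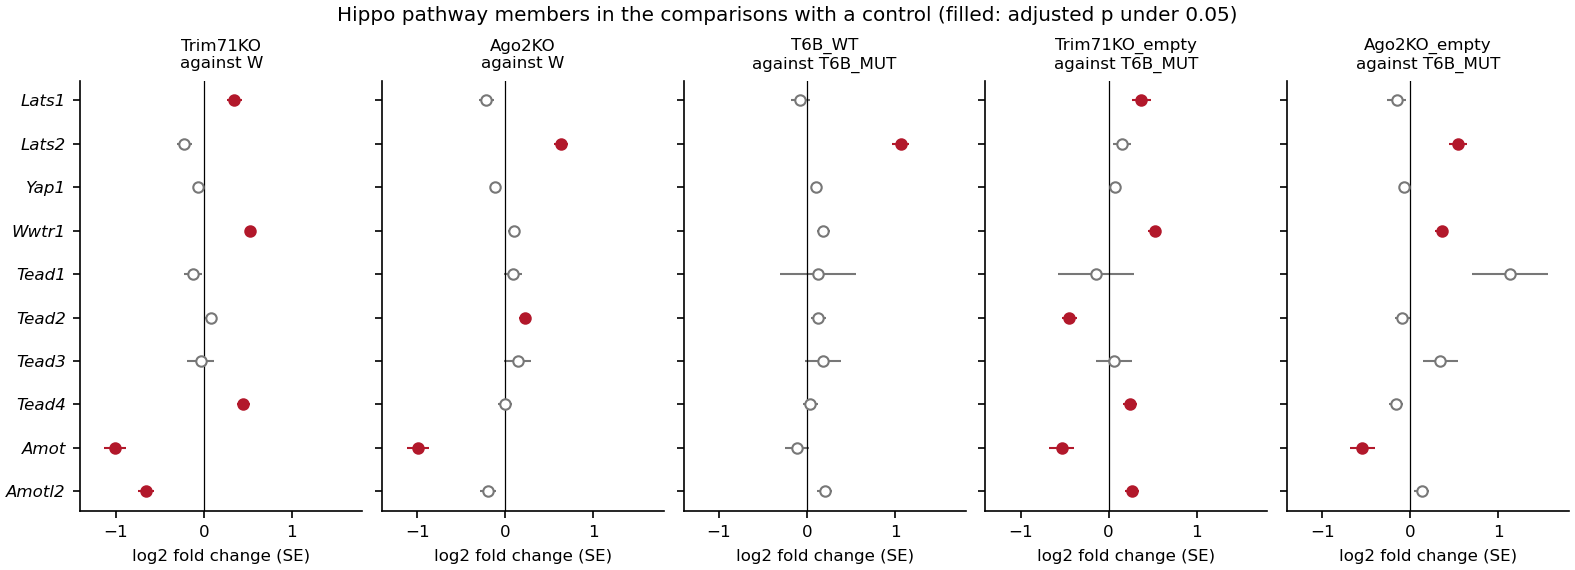
Log2 fold change (horizontal axes) of the 10 members (vertical axis) in the 5 comparisons with a control, with standard errors as bars; filled red points passed an edgeR adjusted p of 0.05. Lats2 is the only filled point in T6B_WT against T6B_MUT, at 1.06, and Amot is filled in the 4 comparisons of edited cells.

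Between the edited lines of Experiment 1, Trim71KO exceeded Ago2KO in Lats1 (log2 fold change 0.57), Tead4 (0.45) and Wwtr1 (0.44) and lay below it in Lats2 (-0.85) and Amotl2 (-0.46), 5 of 10 members where 34.2% of genes were called. Tead2 was also lower, at -0.20, without Trim71KO replicate 3 (edgeR adjusted p = 0.0205). With the empty plasmid, Trim71KO_empty exceeded Ago2KO_empty in Lats1 (0.53) and Tead4 (0.41) and lay below it in Lats2 (-0.39) and Tead2 (-0.35), 4 of 10 where 31.6% were called. Tead1 stood at -1.28 with a standard error of 0.44 and was not called by edgeR (adjusted p = 0.0562), while DESeq2 called it at -1.25 (adjusted p = 0.00934). It was -1.63 and called without Ago2KO_empty replicate 3 (edgeR adjusted p = 0.00295) and -0.66 without the library labelled Ago2KO_empty replicate 2 (edgeR adjusted p = 0.182). The same 4 were called without the library labelled Ago2KO_empty replicate 2, at 0.65, 0.50, -0.32 and -0.35, and Wwtr1 joined them at 0.24 without Ago2KO_empty replicate 1 (edgeR adjusted p = 0.0399). Between T6B_WT and Ago2KO_empty, Lats2 was the single member called, where 9.0% of genes were called. Without the library labelled Ago2KO_empty replicate 2, Amot (0.63) and Tead4 (0.29) were also higher in T6B_WT (edgeR adjusted p = 0.00737 and 0.0349). Without Ago2KO_empty replicate 3, Tead1 was lower at -1.36 and Tead2 higher at 0.30 (edgeR adjusted p = 0.0145 and 0.0208). The effect of Trim71 editing differed between the experiments for Amotl2 and Tead2, 2 of 10 where 10.1% of 22258 genes differed. For Lats2 that difference was 0.37 with a standard error of 0.13 (edgeR adjusted p = 0.0764), called without W replicate 1 at 0.47 (edgeR adjusted p = 0.0294) and without Trim71KO_empty replicate 3 at 0.45 (edgeR adjusted p = 0.0265). The effect of Ago2 editing was not called different for any member by edgeR or DESeq2, where 2.13% of genes differed, and 5 members had an unadjusted p under 0.05 in edgeR. Without Ago2KO_empty replicate 3, Tead1 differed by 1.40 and Tead2 by -0.40 (edgeR adjusted p = 0.0135 and 0.0322). For Lats2 the difference was -0.10 with a standard error of 0.13 (edgeR adjusted p = 0.766). It was -0.15 without the library labelled Ago2KO_empty replicate 2 (edgeR adjusted p = 0.684), and no member was called different there.

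Upstream of LATS, the paralogs Mob1b and Mob1a encode the cofactor that binds and activates LATS kinases. They were among the largest called increases in different groups. Frmd6, a FERM-domain protein upstream of the kinases, rose in all 4 edited groups. The list of upstream regulators and cofactors held 24 genes, of which 21 were tested. Mob1b was 2.31, 2.62 and 2.37 RPKM in Trim71KO and 1.36, 1.09 and 1.17 RPKM in W, a log2 fold change of 1.01 with a standard error of 0.10 (edgeR adjusted p = 6.51e-06). In Trim71KO_empty it was 2.89, 2.97 and 2.51 RPKM beside 1.33, 1.40 and 1.44 RPKM in T6B_MUT, a log2 fold change of 1.01 with a standard error of 0.20 (edgeR adjusted p = 0.00484). Every Trim71-edited library lay above its controls. Mob1a was among the largest increases in Ago2KO (0.45), T6B_WT (0.28) and Ago2KO_empty (0.55), with edgeR adjusted p of 1.87e-05, 0.0106 and 2.02e-05. Only the largest called changes are named, so smaller changes of either paralog in the other groups are not excluded. No upstream gene exceeded 0.63 in Trim71KO_empty against Ago2KO_empty, less than the 1.01 of Mob1b against T6B_MUT. In Trim71KO against Ago2KO the highest upstream value was 1.02. Mob1a was 17.4 to 18.9 RPKM in Ago2KO and 13.1 to 13.3 RPKM in W. In T6B_WT its call was lost without T6B_WT replicate 3 or T6B_MUT replicate 2.

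In Trim71KO, 9 of the 21 upstream genes were higher and 4 lower, with a median log2 fold change of 0.13, where 16.9% of all genes tested were called higher and 15.6% lower. Besides Mob1b these included Frmd6 (0.49) and Sav1 (0.44), the scaffold of MST kinases. Lower were Vgll3 (-0.77), a TEAD cofactor, and the LATS-inhibiting LIM proteins Ajuba (-0.65) and Wtip (-0.42). Vgll3 was low, at 0.147 to 0.247 RPKM in Trim71KO and 0.288 to 0.377 RPKM in W. The number higher was 5 without W replicate 1 or 2. In Ago2KO, 3 were higher and 2 lower, beside 10.2% and 7.78% of all genes. These were Mob1a, Frmd6 (0.33) and the kinase gene Stk3 (0.21) against Wwc1 (-0.29), which encodes the scaffold KIBRA, and the kinase gene Map4k4 (-0.19). The call of Stk3 was lost without W replicate 2 or 3 or Ago2KO replicate 2 or 3.

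In T6B_WT, 5 upstream genes were higher, led by Vgll3 (0.62) and the angiomotin gene Amotl1 (0.51), and 1 was lower, Wtip (-0.23), beside 9.29% and 6.69% of all genes. These numbers were the least steady of the lists, with 1 to 4 higher and 0 or 1 lower when a replicate of either group was left out, and Wtip was lost under 8 of 11 alternatives. Vgll3 was lost without T6B_WT replicate 3 or T6B_MUT replicate 1. Its level was low, at 0.288 to 0.358 RPKM in T6B_WT and 0.196 to 0.229 RPKM in T6B_MUT, with 291 and 232 counts over these groups. In Trim71KO_empty, 7 were higher, led by Mob1b, Frmd6 (0.60) and the kinase gene Taok1 (0.36), and Wtip was lower (-0.26), beside 14.4% and 13.4% of all genes. Leaving out a replicate gave 3 to 6 higher, and the calls of Taok1 and Wtip were lost without T6B_MUT replicate 1 or Trim71KO_empty replicate 1 or 2, that of Wtip also without T6B_MUT replicate 2. In Ago2KO_empty, 6 were higher, led by Vgll3 (0.56), Mob1a and Frmd6 (0.42), and 2 lower, Limd1 (-0.30), a LIM protein that binds LATS, and Map4k4 (-0.24), beside 16.4% and 12.4% of all genes. Without the library labelled Ago2KO_empty replicate 2 the numbers were 4 and 3, with Vgll3 at 0.54, Mob1a at 0.57, Frmd6 at 0.32, Limd1 at -0.36 and Map4k4 at -0.26, all called. They were 4 and 2 without T6B_MUT replicate 1, where Vgll3 was lost.

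Published targets of YAP1 and TEAD were called in both directions in Trim71KO, and Ccn2 fell in Trim71KO and rose in T6B_WT. Of 20 listed genes, 17 were tested in Experiment 1 and 16 in Experiment 2. Ccn2, the secreted matricellular protein CTGF, was 4.13, 5.07 and 4.79 RPKM in W, 1.36, 1.66 and 1.63 RPKM in Trim71KO and 3.54, 3.01 and 3.33 RPKM in Ago2KO. Both edited lines lay below W without overlap. Its log2 fold change was -1.59 with a standard error of 0.11 in Trim71KO and -0.50 with a standard error of 0.10 in Ago2KO (edgeR adjusted p = 5.32e-08 and 0.00262).

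In Experiment 2, Ccn2 was 5.08, 5.54 and 5.66 RPKM in T6B_WT, 2.81, 2.86 and 2.73 RPKM in T6B_MUT, 1.89, 1.70 and 1.42 RPKM in Trim71KO_empty and 3.74, 3.89 and 3.45 RPKM in Ago2KO_empty. The 4 groups did not overlap. The log2 fold change against T6B_MUT was 0.96 in T6B_WT, -0.74 in Trim71KO_empty and 0.42 in Ago2KO_empty (SE 0.10, 0.11 and 0.10, edgeR adjusted p = 2.57e-06, 4.98e-05 and 0.00488). The last was 0.35 without the library labelled Ago2KO_empty replicate 2 (edgeR adjusted p = 0.0221). The effect of Ago2 editing on Ccn2 differed between the experiments by 0.91 with a standard error of 0.14 (edgeR interaction, adjusted p = 0.000325), and by 0.87 without that library (edgeR interaction, adjusted p = 0.000909). That of Trim71 editing differed by 0.85 with a standard error of 0.15 (edgeR interaction, adjusted p = 0.000481).

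Over the target list, 6 of 17 genes were higher and 9 lower in Trim71KO, with a median log2 fold change of -0.23, where 16.9% of all genes were called higher and 15.6% lower. The median was -0.36 without Trim71KO replicate 2, where 18 genes were tested, and -0.31 over 18 genes without the filter. The largest decreases besides Ccn2 were F3 (-1.35), which encodes tissue factor, and Ankrd1. Ankrd1, a cardiac ankyrin repeat gene used as a YAP reporter, had 51 counts over the W libraries and 0 over the Trim71KO libraries, at least 14.7-fold lower against a floor of 3 counts over the group, and the list's median is the same with Ankrd1 at that bound. The largest increases were the membrane repair gene Myof (0.64), Axl (0.50) and Nuak2 (0.46), so the list did not move as 1 block. Axl was not called without W replicate 2 or Trim71KO replicate 1.

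In T6B_WT, 7 of 16 targets were higher and 1 lower, with a median of 0.35, beside 9.29% and 6.69% of all genes. Ccn1, a secreted relative of Ccn2, was 7.63, 7.57 and 8.10 RPKM in T6B_WT and 3.601, 3.37 and 3.33 RPKM in T6B_MUT, a log2 fold change of 1.18 with a standard error of 0.13 (edgeR adjusted p = 5.17e-06). Tgfb2, a growth factor gene, gave 1.07 with a standard error of 0.21 (edgeR adjusted p = 0.00143) at no more than 0.536 RPKM. The single decrease was in Nt5e (-0.60), which encodes a surface nucleotidase. In Ago2KO, 5 targets were higher and 2 lower, beside 10.2% and 7.78% of all genes, led by Ptpn14 (0.68), a phosphatase that also restrains YAP1, Nt5e (0.45) and Myof (0.44), and by Ankrd1 and Ccn2 downward. Ankrd1 had 7 counts in the Ago2KO libraries and was not called by DESeq2. The median over the list was 0.13 in Ago2KO and 0.07 without W replicate 1, each over 17 genes. It was 0.03 over 18 genes without Ago2KO replicate 1.

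In Ago2KO_empty, 9 of 16 targets were higher and 0 lower, with a median of 0.34, beside 16.4% and 12.4% of all genes. Leaving out the library labelled Ago2KO_empty replicate 2 gave 9 and 0 of 17. No target was lower there at an unadjusted p under 0.05 in edgeR or by DESeq2 either, and 6 of 17 were higher without T6B_MUT replicate 2 or 3. The largest increases were Tgfb2 (0.95), Dock5 (0.91) and Ptpn14 (0.78), which were 0.87, 0.58 and 0.64 without that library and still called (edgeR adjusted p = 0.00863, 0.000603 and 0.000239). Dock5 was 4.63, 6.79 and 3.45 RPKM in the libraries labelled Ago2KO_empty and 2.67, 2.92 and 2.47 RPKM in T6B_MUT, highest in the replicate with the most Ago2, and its call was lost without T6B_MUT replicate 3 or with the groups fitted alone. In Trim71KO_empty, 2 were higher, Myof (0.73) and Crim1 (0.27), and 3 lower, F3 (-0.75), Ccn2 and Igfbp3 (-0.45), with a median of 0.07, beside 14.4% and 13.4% of all genes. Without Trim71KO_empty replicate 1 there were 1 higher and 5 lower of 17, with a median of -0.05. DESeq2 and the fit without the filter also gave 5 lower, of 18 tested, and the groups fitted alone gave 5 of 16. Crim1 was lost without T6B_MUT replicate 1 or 2 or Trim71KO_empty replicate 1 or 3.

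Markers of cell types were read in the same comparisons. Called higher and lower there were 16.9% and 15.6% of all genes in Trim71KO, 10.2% and 7.78% in Ago2KO, and 9.29% and 6.69% in T6B_WT. In Trim71KO_empty the shares were 14.4% and 13.4%, and in Ago2KO_empty 16.4% and 12.4%. The stem cell list summed to 1285 to 1410 RPKM in W and 1619 to 1797 RPKM in Trim71KO, where 4 of 6 markers were higher and 0 lower, and to 1208 to 1257 RPKM in T6B_MUT and 1570 to 1642 RPKM in Trim71KO_empty, where 5 were higher. In Trim71KO, 5 of 7 trophectoderm markers and 5 of 6 primitive endoderm markers were lower and the trophectoderm marker Eomes was higher (0.38). In T6B_WT 2 of 5 trophectoderm markers were higher and 1 of 6 primitive endoderm markers lower. The trophectoderm list was mixed in Ago2KO, with 2 of 7 higher and 2 lower, in Trim71KO_empty, with 1 of 5 higher and 3 lower, and in Ago2KO_empty, with 2 of 5 higher and 2 lower. The summed level of the trophectoderm list was 23.8 to 26.1 RPKM in W, 14.9 to 17.2 RPKM in Trim71KO, 23.1 to 23.5 RPKM in T6B_MUT and 25.4 to 29.7 RPKM in T6B_WT. The primitive endoderm sum was 5.86 to 6.61 RPKM in W, 1.17 to 1.24 RPKM in Trim71KO and 1.81 to 2.29 RPKM in Ago2KO. It was 4.20 to 4.31 RPKM in T6B_MUT, 3.53 to 3.96 RPKM in T6B_WT, 1.79 to 2.28 RPKM in Trim71KO_empty and 2.71 to 3.75 RPKM in Ago2KO_empty. All 6 of its markers were lower in Ago2KO and 3 in Ago2KO_empty, and in Trim71KO_empty 5 were lower and Sox7 was higher (0.83). Leaving out the library labelled Ago2KO_empty replicate 2, a fit added after the data were seen, gave 5 primitive endoderm markers lower in that group, and 1 trophectoderm marker higher and 2 lower. The 3 fibroblast markers in the table summed to 0.734 to 3.83 RPKM and 4 neural and mesendoderm markers to 1.64 to 3.50 RPKM over all libraries. In T6B_WT and in Ago2KO_empty, 2 of 6 stem cell markers were higher and 1 lower, and in Ago2KO 1 was higher. Of the 4 neural and mesendoderm markers, 1 was higher and 2 lower in Trim71KO, and 2 were lower in Trim71KO_empty. In Ago2KO and in T6B_WT 1 of them was higher, and in Ago2KO_empty 1 was lower. Without the library labelled Ago2KO_empty replicate 2, 1 stem cell marker was higher and 1 lower, and 1 neural or mesendoderm marker was lower. No gene of these lists was at 0 in all libraries of a group. Their part in the results on members and targets was not tested, and in bulk libraries fewer cells of a type and less RNA per cell cannot be told apart.

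**Figure D5:**
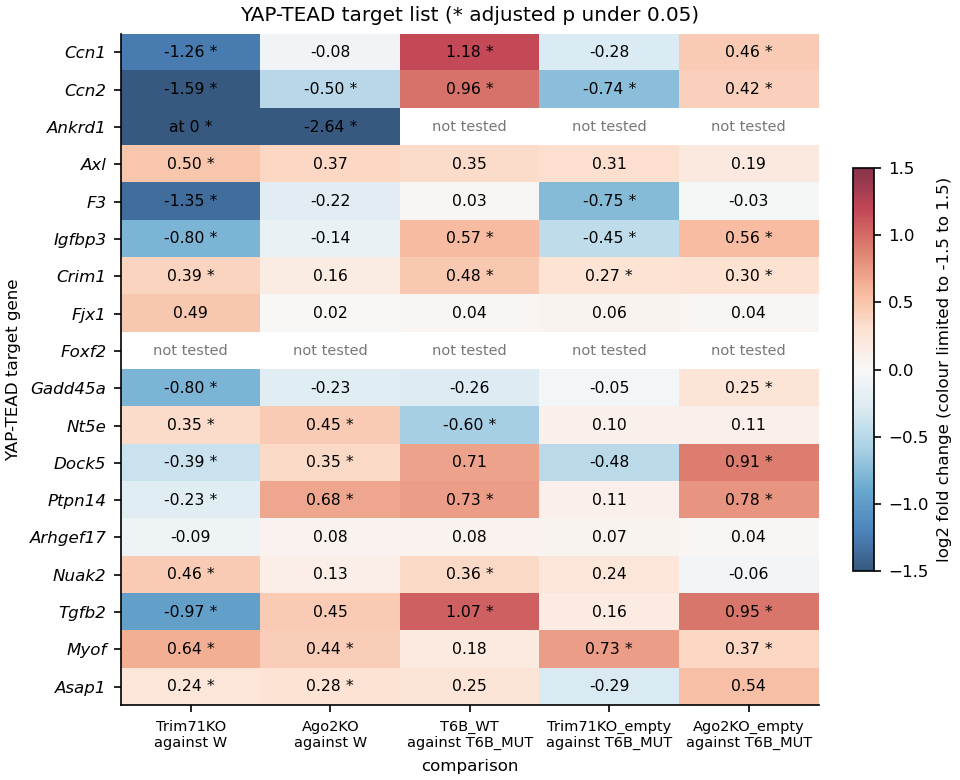
Log2 fold change (numbers and colour) of 18 listed YAP-TEAD target genes (rows) in the 5 comparisons with a control (columns); an asterisk marks an edgeR adjusted p under 0.05, and "at 0" a group without counts. Ccn1, Ccn2 and Tgfb2 are at -1.26, -1.59 and -0.97 in Trim71KO against W and at 1.18, 0.96 and 1.07 in T6B_WT against T6B_MUT.

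The genes most like Lats2 in pattern were ranked by Pearson's r over the 21 libraries, on log2 CPM centred on the mean of each experiment, among 12878 genes. Among the highest were Gm49361 (r = 0.96), which shares exons with Lats2, 9530068E07Rik (0.94), Lonrf1 (0.93) and Spryd3 (0.92). These points share groups and libraries, so r is a description. Spryd3 averaged 19.3 CPM in W and 31.7 CPM in Ago2KO, and 15.4 CPM in T6B_MUT and 30.8 CPM in T6B_WT. Among the other members, r with Lats2 ran from -0.53 for Lats1 to 0.49 for Tead2.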

How the data were processed

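The authors deposited 1 table of 22512 genes with raw read counts per gene, RPKM values and a gene length for each of 21 libraries, per the file headers. Per the submitters' processing notes, bcl2fastq 2.17 and STAR 2.7.3a were used with the genome build GRCm38 (mm10). The counting program, annotation, gene filter and use of strand are not given in the sources used here, so genes with an antisense partner are uncertain. The deposited gene length, named for QuasR per the file headers, equalled the exon length in GENCODE M21 for 22158 of 22480 genes found there. Coordinates and UTRs come from M21 (GRCm38).

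Raw counts were tested with edgeR 4.0.16 in R 4.3.3 (quasi-likelihood F test, robust dispersion, TMM, filterByExpr with a minimum count of 10, Benjamini-Hochberg over all genes, called at an adjusted p under 0.05). The 9 libraries of Experiment 1 and the 12 of Experiment 2 were fitted separately, and all 21 together for differences between experiments. Deposited RPKM gave levels and ratios; CPM were computed on TMM-scaled library sizes. Ratios were tested by exact permutation. The scripts were tested on simulated data. Alternatives were DESeq2 1.42.0, its size factors, no filter, the replicate number as a block, the compared groups fitted alone, and each replicate left out. Members, lists, tests and alternatives were chosen with earlier results of these data known. All 10 members are named, and of the upstream and target lists up to 3 called genes per direction with the largest change in each comparison with a control. The 5 genes most like Lats2 needed a mean log2 CPM of at least 2, with 0.5 added, and 1 of them is not reported here. Gm49361, and the lists under the alternatives, were added after the data were seen. All replicate pairs differed beyond counting noise (chi-square per degree of freedom 3.598 to 81.2), so each library is 1 replicate. P-values cover the spread between these libraries only.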

Additional observations from a re-analysis of the deposited data

Results flagged for a closer look

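In 2 members, the effect of Trim71 editing differed between the experiments by an edgeR interaction term over all 21 libraries. For Amotl2 the effect in Experiment 2 minus that in Experiment 1 was 0.92 on the log2 scale: it was -0.66 in Trim71KO against W and 0.27 in Trim71KO_empty against T6B_MUT. For Tead2 the difference was -0.52, from 0.08 in Experiment 1 and -0.45 in Experiment 2. Both were called under all 16 alternatives, at 0.79 to 1.03 for Amotl2 and -0.61 to -0.43 for Tead2. Experiment, transfection and the choice of control differ together between these effects and cannot be told apart.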

How the results depend on the processing

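Of 1200 values of the 10 members under alternatives, 14 lost a call, 23 gained one and 0 called values changed direction. Uncalled values changed sign 44 times, from sizes of at most 0.19. Lats2 stayed called in Ago2KO (0.56 to 0.67), T6B_WT (1.003 to 1.08) and Ago2KO_empty (0.46 to 0.61) under all 11 alternatives each. In Trim71KO against W it ranged from -0.29 to -0.18 when 1 replicate was left out.

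With 1 replicate left out, the number of members called is given where it changed most in proportion. Smaller changes are not listed, such as the calls gained by Lats2 in Trim71KO against W and by Tead2 in Trim71KO against Ago2KO. In Ago2KO against W the number was 1 to 2 higher and 1 to 2 lower. In Trim71KO_empty against T6B_MUT it was 1 to 4 higher. In Ago2KO_empty against T6B_MUT it was 1 to 3 lower, and in T6B_WT against Ago2KO_empty 1 to 3 higher and 0 to 1 lower. For the difference in Trim71 effect it was 1 to 2 higher, and for that in Ago2 effect 0 to 1 in each direction. In T6B_WT against T6B_MUT, 3 members were higher with the groups fitted alone, and 3 in T6B_WT against Ago2KO_empty by DESeq2. The cause was not tested.

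With the replicate number as a block, Lats2 was 0.63 in Ago2KO, 1.06 in T6B_WT, 0.53 in Ago2KO_empty, -0.22 in Trim71KO and 0.14 in Trim71KO_empty, and no call of a member changed. Same-numbered libraries correlated above 0.1 in 10 of 27 pairs, with r from -0.64 to 0.64. Of 21 libraries, 10 correlated best with their own number. With so few libraries per group these correlations cannot exclude a pairing, and the main fits assumed none. Depth limits Tead3 and Amot most.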
